A study of Sus scrofa with 5 samples.

Results

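Interferon-stimulated genes were followed as a module through 5 single-cell RNA libraries of pig skin. The module was a list of 37 gene symbols, and its members were the rows whose deposited symbol was on that list. A row was found for 35 of the 37 among 20286 gene rows. GBP1 and XAF1, a guanylate binding protein and a factor that favours cell death, had no row under their symbols. The pigs (Sus scrofa) had full-thickness wounds closed with split-thickness skin grafts. The grafts were either dressed with a hydrogel that carries FAKI, an inhibitor of focal adhesion kinase, or left untreated (STSG), and were taken at day 90 or day 7. Each of the 4 graft groups (FAKI day 90, STSG day 90, FAKI day 7 and STSG day 7) and unwounded skin was 1 library of freshly digested cells. The sources used here give neither strain, age nor sex of the pigs, nor how many animals a library holds, and an animal cannot be told apart from its group.

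Interferons are secreted proteins, and cells release those of type I and type III on sensing foreign or misplaced nucleic acid. Type I and type III interferons signal through JAK kinases to a transcription factor complex that holds STAT2 and IRF9, while interferon gamma, made mainly by T and NK cells, acts through its own receptor and drives IRF1 among other genes. The genes switched on in this way block viral replication, attach the ubiquitin-like protein ISG15 to other proteins, present antigen and dampen the signal itself. In skin these genes can be read in keratinocytes, fibroblasts, vessels and immune cells.

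The libraries held 18485301 to 79671374 UMIs (unique molecular identifiers, each standing for 1 captured RNA molecule) over all barcodes and 1542 to 8653 kept cells. Reads come from the 3′ end of RNA and are not scaled by length, so levels are compared between libraries and classes and not between genes. Cells were clustered without the interferon genes, and clusters took their class from marker genes, so classes are called endothelial-like and so on. Class markers separated the classes checked to differing degrees. CD3E was at 1228 CPM in T or NK-like cells and at most 6.73 elsewhere, and KRT5 at 17870.0 in keratinocyte-like cells and at most 354 elsewhere. PECAM1 separated endothelial-like cells less sharply, at 1494 against 1068 in the class with the next highest level. Some cell barcodes occurred in more than 1 library, 320 of 32169, with 152 between FAKI day 90 and unwounded skin, 133 between STSG day 90 and unwounded skin and 70 between the day 90 grafts. Of the cells kept on both sides of those pairs, 47 of 51, 31 of 35 and 21 of 27 had the same class in both libraries. Leaving out every cell with a shared barcode moved the summed module level of a comparison by a factor of at most 1.11 over 60 comparisons. The values below include them, and the direction turned in 2 of the 60, which are given where they come up. Levels are given in CPM, the UMIs of a gene per 1000000 UMIs of the library or class. With 1 library per group there is no replicate, so no p-value is given, and every 95% interval covers counting error only. A member is called higher or lower where its ratio passed 1.5-fold, which is a rule of size.

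Summed over its 35 members, the module took 0.408% of all UMIs in FAKI day 90, 0.223% in STSG day 90, 0.553% in FAKI day 7, 0.314% in STSG day 7 and 0.484% in unwounded skin. Inhibitor grafts were thus above untreated grafts at both days, 1.83-fold (1.81 to 1.84) at day 90 and 1.76-fold (1.75 to 1.77) at day 7, while unwounded skin lay between the inhibitor grafts of both days. IFI6 alone supplied between 29.4% (unwounded skin) and 38.9% (FAKI day 7) of the module's UMIs, so a summed level leans on it. Without IFI6, ISG15 and IRF1 the log2 ratio of the sum was 0.67 at day 90 and 0.67 at day 7. The source of these UMIs differed by library. Endothelial-like cells gave 75% of the module's UMIs in FAKI day 90, 62.8% in STSG day 90, 20.5% in FAKI day 7, 39.5% in STSG day 7 and 80.6% in unwounded skin. The same cells made up 35.6% of kept cells in FAKI day 90, 23.4% in STSG day 90, 13.4% in FAKI day 7, 20.2% in STSG day 7 and 41.6% in unwounded skin, so a level over all cells mixes the make-up of a library with the level inside its cells.

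**Figure D1:**
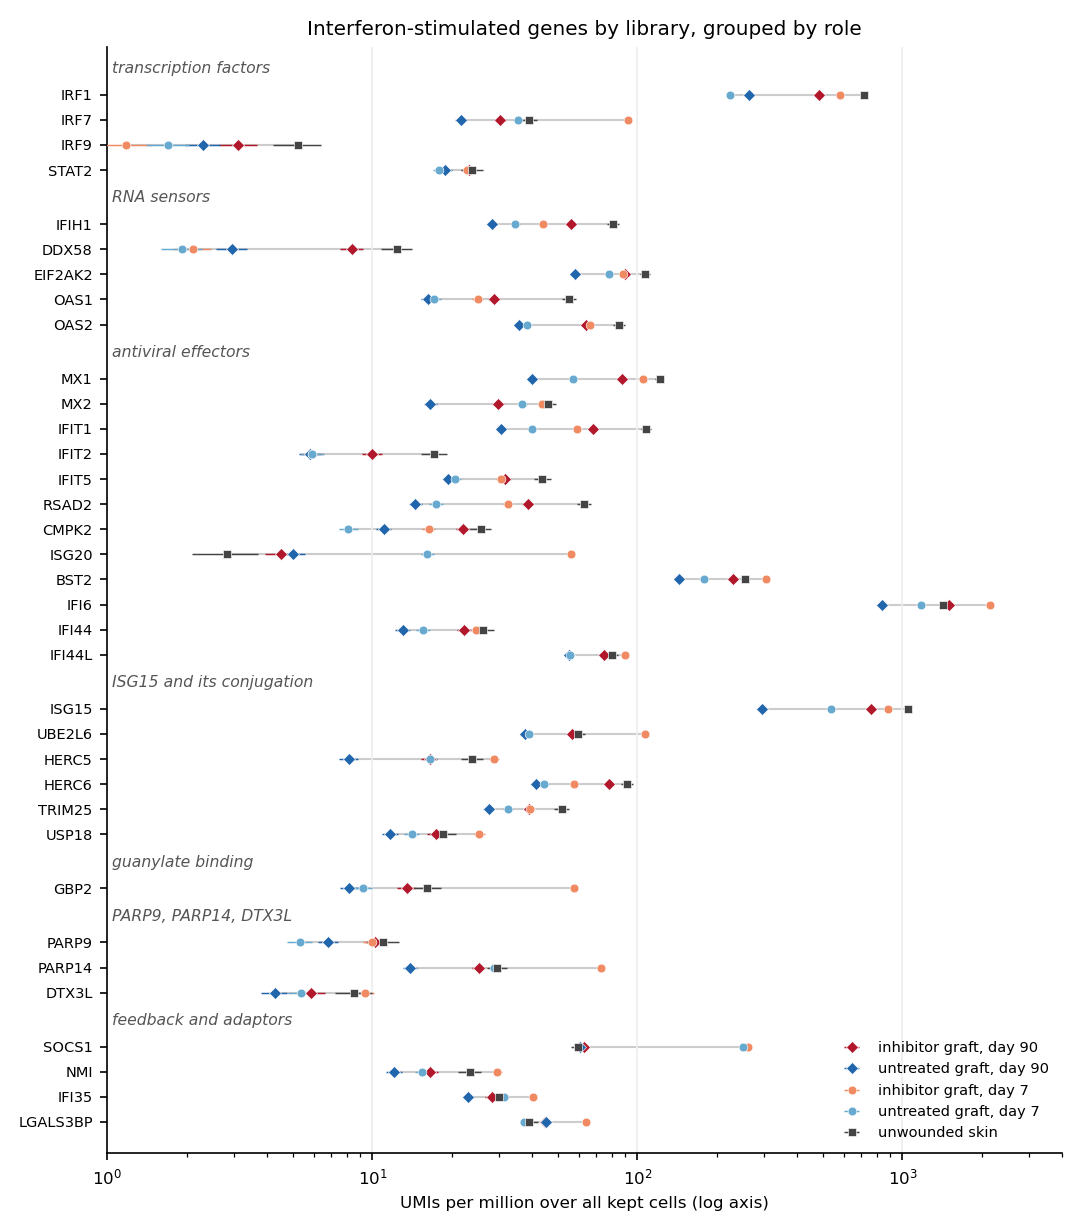
Level of each of the 35 members over all kept cells of a library, in CPM on a log axis, grouped by role; diamonds are day 90 grafts, circles day 7 grafts and squares unwounded skin, and bars are 95% Poisson intervals for counting error. In most rows the inhibitor graft lies right of the untreated graft of the same day, and the exceptions are ISG20 and LGALS3BP at day 90 and IRF9 and IFIT2 at day 7.

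The transcription factors of the module were led by IRF1, an early target of interferon gamma. IRF1 was at 486 CPM in FAKI day 90, 265 in STSG day 90, 582 in FAKI day 7, 224 in STSG day 7 and 714 in unwounded skin. The inhibitor graft was the higher one at both days, 1.84-fold (1.80 to 1.87) at day 90 and 2.60-fold (2.55 to 2.65) at day 7, but unwounded skin was the highest library of the 5. Immediate early genes, which respond to digestion as well as to signals, took 1.01% of UMIs in FAKI day 90, 0.817% in STSG day 90, 0.387% in FAKI day 7, 0.353% in STSG day 7 and 1.4% in unwounded skin. Their part in the IRF1 level was not tested. IRF7, the factor that amplifies production of type I interferon, was at 30.3 CPM in FAKI day 90, 21.6 in STSG day 90, 92.2 in FAKI day 7, 35.4 in STSG day 7 and 38.8 in unwounded skin. It was 2.60-fold (2.48 to 2.73) higher with the inhibitor at day 7 and under the 1.5-fold rule at day 90, 1.41-fold (1.31 to 1.51). STAT2, a subunit of the type I signalling complex, was at 23.2 CPM in FAKI day 90, 18.9 in STSG day 90, 22.7 in FAKI day 7, 17.9 in STSG day 7 and 23.8 in unwounded skin, a spread of libraries too small to pass 1.5-fold at either day. Its partner IRF9 was the least counted member, with 5.24 CPM or fewer in every library. At day 7 it was at 1.18 in FAKI and 1.69 in STSG, a ratio under 1 that did not pass the rule.

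Among the RNA sensors, IFIH1 (MDA5) recognises long double-stranded RNA and was at 56.0 CPM in FAKI day 90, 28.2 in STSG day 90, 44.2 in FAKI day 7, 34.6 in STSG day 7 and 81.2 in unwounded skin. EIF2AK2 (PKR), a kinase that halts translation when it binds double-stranded RNA, was at 89.6 CPM in FAKI day 90, 58.2 in STSG day 90, 88.5 in FAKI day 7, 78.0 in STSG day 7 and 107 in unwounded skin. Both were over 1.5-fold higher with the inhibitor at day 90, 1.99-fold and 1.54-fold, and under the rule at day 7, 1.27-fold and 1.13-fold. OAS1 and OAS2 make the oligoadenylates that activate RNase L. OAS1 was at 28.8 CPM in FAKI day 90, 16.2 in STSG day 90, 25 in FAKI day 7, 17.0 in STSG day 7 and 55.2 in unwounded skin, and OAS2 was at 63.9 CPM in FAKI day 90, 35.7 in STSG day 90, 66.2 in FAKI day 7, 38.2 in STSG day 7 and 85.0 in unwounded skin. Unwounded skin was highest for each of these 4 sensors, and STSG day 90 was lowest. DDX58 (RIG-I), a sensor of uncapped RNA, reached at most 12.3 CPM. It was 2.83-fold (2.39 to 3.36) higher with the inhibitor at day 90, at 8.36 in FAKI against 2.95 in STSG, and 1.09-fold (0.855 to 1.4) at day 7, at 2.10 in FAKI against 1.92 in STSG.

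The antiviral effectors formed the largest group. IFI6, a small membrane protein that protects cells from death during infection, was at 1496 CPM in FAKI day 90, 835 in STSG day 90, 2149 in FAKI day 7, 1175 in STSG day 7 and 1422 in unwounded skin. The inhibitor grafts exceeded the untreated grafts 1.79-fold (1.77 to 1.81) at day 90 and 1.83-fold (1.81 to 1.84) at day 7. BST2 (tetherin), which holds budding virus at the cell surface, was at 229.8 CPM in FAKI day 90, 144 in STSG day 90, 306 in FAKI day 7, 178 in STSG day 7 and 255 in unwounded skin. MX1, a dynamin-like GTPase that traps viral nucleoproteins, was at 87.6 CPM in FAKI day 90, 39.9 in STSG day 90, 105 in FAKI day 7, 57.4 in STSG day 7 and 121 in unwounded skin. Its relative MX2 was at 29.9 CPM in FAKI day 90, 16.5 in STSG day 90, 43.7 in FAKI day 7, 36.8 in STSG day 7 and 45.9 in unwounded skin. All 3 were over 1.5-fold higher with the inhibitor at day 90; at day 7 BST2 and MX1 passed and MX2, at 1.19-fold (1.13 to 1.25), did not. The IFIT proteins bind RNA at its start. IFIT1 was at 67.8 CPM in FAKI day 90, 30.7 in STSG day 90, 59.1 in FAKI day 7, 40.0 in STSG day 7 and 108 in unwounded skin, and IFIT5 was at 31.6 CPM in FAKI day 90, 19.4 in STSG day 90, 30.6 in FAKI day 7, 20.5 in STSG day 7 and 43.8 in unwounded skin. Unwounded skin held the highest level of each, and the day 90 ratios (2.21-fold and 1.63-fold) were above those at day 7 (1.48-fold and 1.49-fold). IFIT2 stayed between 5.84 and 17.1 CPM, and its day 7 grafts were level at 0.998-fold (0.868 to 1.15). RSAD2 (viperin), which makes a chain-terminating nucleotide, was at 38.5 CPM in FAKI day 90, 14.5 in STSG day 90, 32.4 in FAKI day 7, 17.3 in STSG day 7 and 62.9 in unwounded skin. CMPK2, the nucleotide kinase that acts with it, was at 21.9 CPM in FAKI day 90, 11.1 in STSG day 90, 16.3 in FAKI day 7, 8.12 in STSG day 7 and 25.6 in unwounded skin. RSAD2 was 2.65-fold (2.46 to 2.86) higher with the inhibitor at day 90 and 1.87-fold (1.74 to 2.01) at day 7, and again unwounded skin was above every graft. ISG20, an RNA exonuclease, had another order. It was at 4.53 CPM in FAKI day 90, 5.02 in STSG day 90, 56.3 in FAKI day 7, 16.1 in STSG day 7 and 2.82 in unwounded skin, so FAKI day 7 stood 3.49-fold (3.27 to 3.74) above STSG day 7, while FAKI day 90 was at 0.902-fold (0.759 to 1.07) of STSG day 90 and unwounded skin was lowest. IFI44 and IFI44L are paralogues with reported antiviral effects. IFI44 was at 22.2 CPM in FAKI day 90, 13.0 in STSG day 90, 24.7 in FAKI day 7, 15.5 in STSG day 7 and 26.2 in unwounded skin, and IFI44L was at 74.7 CPM in FAKI day 90, 55.4 in STSG day 90, 89.4 in FAKI day 7, 55.6 in STSG day 7 and 80.0 in unwounded skin. IFI44 passed the rule at both days and IFI44L at day 7 (1.61-fold) and not at day 90 (1.35-fold).

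ISG15 and the enzymes that attach it came next. ISG15 was at 761 CPM in FAKI day 90, 295 in STSG day 90, 883 in FAKI day 7, 538 in STSG day 7 and 1047 in unwounded skin. It was the member with the widest treatment gap among the abundant ones at day 90, 2.58-fold (2.54 to 2.63), against 1.64-fold (1.62 to 1.66) at day 7. UBE2L6, the conjugating enzyme for ISG15, was at 56.5 CPM in FAKI day 90, 37.6 in STSG day 90, 107 in FAKI day 7, 38.8 in STSG day 7 and 59.5 in unwounded skin. FAKI day 7 stood apart from the other 4 libraries, 2.74-fold (2.62 to 2.87) above STSG day 7. HERC5, the ISG15 ligase in human cells, was at 16.4 CPM in FAKI day 90, 8.14 in STSG day 90, 28.7 in FAKI day 7, 16.5 in STSG day 7 and 23.8 in unwounded skin. HERC6, which has that role in the mouse, was at 77.8 CPM in FAKI day 90, 41.5 in STSG day 90, 57.8 in FAKI day 7, 44.6 in STSG day 7 and 91.4 in unwounded skin. Both ligases were over 1.5-fold higher with the inhibitor at day 90 (2.02-fold and 1.88-fold), and HERC5 also at day 7 (1.74-fold), where HERC6 was at 1.30-fold. TRIM25, a ubiquitin ligase that activates RIG-I, was at 39.0 CPM in FAKI day 90, 27.4 in STSG day 90, 39.5 in FAKI day 7, 32.5 in STSG day 7 and 51.9 in unwounded skin, under the rule at both days. USP18, which removes ISG15 and blocks the type I receptor, was at 17.3 CPM in FAKI day 90, 11.7 in STSG day 90, 25.3 in FAKI day 7, 14.1 in STSG day 7 and 18.5 in unwounded skin. It passed the rule at day 7 (1.79-fold) and came just under it at day 90 (1.48-fold).

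GBP2, a guanylate binding protein of the interferon gamma response, showed the largest ratio of the 35 members at day 7. It was at 13.5 CPM in FAKI day 90, 8.19 in STSG day 90, 57.5 in FAKI day 7, 9.20 in STSG day 7 and 16.1 in unwounded skin, which is 6.25-fold (5.74 to 6.81) at day 7 and 1.64-fold (1.47 to 1.84) at day 90. FAKI day 7 lay above each of the other libraries by more than 1.5-fold. PARP14, a mono-ADP-ribosyltransferase, was at 25.2 CPM in FAKI day 90, 13.9 in STSG day 90, 72.7 in FAKI day 7, 28.8 in STSG day 7 and 29.6 in unwounded skin, again with FAKI day 7 apart from the rest, 2.52-fold (2.39 to 2.66) above STSG day 7. PARP9 and DTX3L, which work as a pair in ADP-ribosylation and ubiquitylation, were sparse, with at most 11.0 and 9.38 CPM, and were 1.87-fold and 1.75-fold higher with the inhibitor at day 7.

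Feedback and adaptor genes were the least uniform group. SOCS1, which inhibits JAK kinases, was at 62.7 CPM in FAKI day 90, 60.9 in STSG day 90, 261 in FAKI day 7, 249 in STSG day 7 and 59.7 in unwounded skin. Both day 7 grafts stood far above the other 3 libraries, and the treatment ratio was close to 1 at each day, 1.03-fold (0.982 to 1.08) at day 90 and 1.05-fold (1.02 to 1.07) at day 7. NMI, a protein that binds STATs, was at 16.5 CPM in FAKI day 90, 12.1 in STSG day 90, 29.6 in FAKI day 7, 15.4 in STSG day 7 and 23.3 in unwounded skin. Its partner IFI35 was at 28.2 CPM in FAKI day 90, 22.9 in STSG day 90, 40.4 in FAKI day 7, 31.3 in STSG day 7 and 30.0 in unwounded skin. NMI was 1.92-fold (1.78 to 2.07) higher with the inhibitor at day 7, and IFI35, at 1.29-fold (1.22 to 1.37), did not pass the rule. LGALS3BP, a secreted galectin-binding glycoprotein, was at 44.9 CPM in FAKI day 90, 45.4 in STSG day 90, 64.1 in FAKI day 7, 37.5 in STSG day 7 and 38.9 in unwounded skin. It was 1.71-fold (1.63 to 1.80) higher at day 7 and did not differ by the rule at day 90, 0.989-fold (0.937 to 1.05).

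The inhibitor graft at day 7 was set against the untreated graft of the same day. Over all cells, 17 members reached 50 CPM in at least 1 of these libraries. Of these, 13 were over 1.5-fold higher with the inhibitor and 0 lower, where 3.11% of all 2767 genes at that level were higher and 4.37% lower. The median log2 ratio was 0.79 for these members and 0.02 for those genes. That level was reached in 1 library only by 9 of the 17, which therefore had to differ to some extent. With every member that had a UMI, 21 of 35 were higher and 0 lower, against a background of 6.31% and 15.4% of 16757 genes. None of the 35 was lower by the rule, and IRF9 and IFIT2 were the 2 with a ratio under 1.

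Within vessel cells the same direction held at day 7. The level was reached in 1 library only by 8 of 15 members in pericyte or smooth muscle-like and 8 of 17 in lymphatic endothelial-like cells. Those members had to differ to some extent. Pericyte or smooth muscle-like cells (2218 FAKI, 1596 STSG) had 15 members at the level, of which 13 were higher and 0 lower (background 2.53% higher and 5.24% lower), and their summed module was at 5982 in FAKI against 2700 in STSG CPM, 2.22-fold (2.19 to 2.24). GBP2 was at 60.6 in FAKI against 3.19 in STSG, 19.0-fold (13.6 to 27.5), in those cells. PARP14 was at 58.2 in FAKI against 6.92 in STSG, 8.40-fold (6.65 to 10.8). IRF7, UBE2L6, LGALS3BP and BST2 were the next (4.50-fold, 4.39-fold, 3.98-fold and 3.96-fold), OAS2 was at 74.6 in FAKI against 24.9 in STSG and IRF1 at 748 in FAKI against 284 in STSG. In lymphatic endothelial-like cells, which were few (59 FAKI, 83 STSG), 16 of 17 members were higher and 0 lower (background 7.27% higher and 10.2% lower), with a module at 6569 in FAKI against 2097 in STSG, 3.13-fold (2.93 to 3.35). PARP14 was at 123 in FAKI against 5.27 in STSG and GBP2 at 142 in FAKI against 8.78 in STSG there. These ratios rest on 3 and 5 UMIs in STSG day 7, and their intervals ran over 7.64 to 116 and 6.65 to 51.2. ISG15 at 1000 in FAKI against 186 in STSG, IRF7 at 119 in FAKI against 22.8 in STSG and LGALS3BP at 81.7 in FAKI against 14.1 in STSG were also over 5-fold higher, with IRF1 (3.67-fold), UBE2L6 (3.61-fold) and IFI6 (2.98-fold) after them.

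Endothelial-like cells had the highest module level of any class in both day 7 grafts and the smallest treatment ratio apart from mast-like cells, 9254 in FAKI against 5998 in STSG CPM, 1.54-fold (1.53 to 1.56). Of 22 members at the level, 12 were higher and 0 lower (background 1.94% higher and 4.58% lower). The level was reached in 1 library only by 6 of the 22. GBP2 was at 141 in FAKI against 22.5 in STSG, ISG20 at 104 in FAKI against 23.3 in STSG, IRF7 at 133 in FAKI against 51.6 in STSG and PARP14 at 147 in FAKI against 61.5 in STSG. IRF1 was at 835 in FAKI against 366 in STSG, UBE2L6 at 154 in FAKI against 71.5 in STSG, BST2 at 674 in FAKI against 382 in STSG and ISG15 at 2502 in FAKI against 1458 in STSG. By contrast IFI6 differed by 1.23-fold (1.21 to 1.25), MX1 by 1.35-fold (1.24 to 1.47) and IFIH1 by 1.25-fold (1.14 to 1.36) in these cells, all under the rule. In endothelial-like cells the members past 1.5-fold thus included GBP2, ISG20, PARP14, IRF1 and ISG15, while IFI6 was not among them. Of the module's UMIs in these cells IFI6 supplied 26.2% in FAKI and 32.9% in STSG, and ISG15 27.0% in FAKI and 24.3% in STSG.

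Fibroblast-like cells (1368 FAKI, 1342 STSG) held 10 members at the level at day 7, with 8 higher and 0 lower (background 3.65% higher and 3.98% lower) and a module of 4074 in FAKI against 1954 in STSG, 2.09-fold (2.06 to 2.11). UBE2L6 was at 70.7 in FAKI against 22.1 in STSG, ISG15 at 347 in FAKI against 124 in STSG, BST2 at 252 in FAKI against 106 in STSG and MX1 at 67.6 in FAKI against 31.5 in STSG. IRF1 (2.44-fold), IFI6 (2.04-fold), IFI44L (1.80-fold) and LGALS3BP (1.67-fold) made up the 8. In keratinocyte-like cells (355 FAKI, 470 STSG) 17 of 20 members were higher and 0 lower (background 4.75% higher and 4.4% lower), and the module was at 5385 in FAKI against 2724 in STSG, 1.98-fold (1.94 to 2.01). IRF1 showed the largest ratio there, at 700.3 in FAKI against 153 in STSG CPM. ISG20 was at 106 in FAKI against 40.8 in STSG, UBE2L6 at 97.3 in FAKI against 38.9 in STSG, IFI6 at 1654 in FAKI against 716 in STSG and IRF7 at 135 in FAKI against 61.2 in STSG. USP18 (2.14-fold), PARP14 (2.15-fold) and SOCS1 (2.12-fold) followed. ISG15 itself, at 998 in FAKI against 693 in STSG, was 1.44-fold (1.39 to 1.5) and did not pass. The level was reached in 1 library only by 4 of the 10 members in fibroblast-like and 10 of the 20 in keratinocyte-like cells.

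Immune cells also had more members higher than lower at day 7. Members that reached the level in 1 library only had to differ to some extent. They were 8 of 22 in T or NK-like, 6 of 17 in myeloid-like and 11 of 15 in dendritic-like cells. In B or plasma-like cells they were 7 of 12 and in mast-like cells 3 of 8. T or NK-like cells (1895 FAKI, 962 STSG) had 19 of 22 members higher and 0 lower (background 3.36% higher and 2.39% lower) and a module of 6424 in FAKI against 2650 in STSG, 2.42-fold (2.36 to 2.49). HERC5 was at 66.6 in FAKI against 15.0 in STSG, RSAD2 at 87.2 in FAKI against 22.8 in STSG, MX1 at 212 in FAKI against 57.2 in STSG and IFI6 at 1894 in FAKI against 569 in STSG. IFIT1, ISG15, ISG20 and MX2 were 3.15-fold, 3.09-fold, 3.09-fold and 2.60-fold higher. Myeloid-like cells (251 FAKI, 494 STSG) had 13 of 17 higher and 0 lower (background 7.35% higher and 5.21% lower), with a module of 5916 in FAKI against 3007 in STSG, 1.97-fold (1.93 to 2.01). ISG20 was at 80.4 in FAKI against 10.6 in STSG, IRF1 at 564 in FAKI against 172 in STSG, IRF7 at 163 in FAKI against 57.0 in STSG and SOCS1 at 275 in FAKI against 107 in STSG in them. UBE2L6, PARP14, NMI and BST2 were 2.65-fold, 2.37-fold, 2.35-fold and 1.99-fold higher. Dendritic-like cells (98 FAKI, 102 STSG) had 14 of 15 higher and 0 lower (background 8.21% higher and 7.37% lower) and a module of 3961 in FAKI against 1437 in STSG, 2.76-fold (2.59 to 2.94). ISG20 (6.49-fold), UBE2L6 (6.28-fold), IRF7 (5.54-fold), IRF1 (5.38-fold), ISG15 (4.82-fold), PARP14 (4.33-fold), MX1 (3.39-fold) and BST2 (3.35-fold) led them. B or plasma-like cells (127 FAKI, 110 STSG) had 9 of 12 higher and 1 lower (background 10.4% higher and 14.3% lower), and a module of 3320 in FAKI against 1003 in STSG, 3.31-fold (3.08 to 3.56). IFI6 was at 1682 in FAKI against 179.8 in STSG, MX1 at 118 in FAKI against 14.8 in STSG, ISG15 at 345 in FAKI against 76.2 in STSG and UBE2L6 at 60.2 in FAKI against 7.41 in STSG. BST2, LGALS3BP and IRF1 were 3.26-fold, 3.20-fold and 2.87-fold higher, and SOCS1 was the lower one, at 90.9 in FAKI against 249 in STSG. Mast-like cells (353 FAKI, 418 STSG) had 7 of 8 higher and 1 lower (background 4.93% higher and 5.28% lower), yet their summed module was at 2492 in FAKI against 1955 in STSG, 1.27-fold (1.22 to 1.33). SOCS1 supplied 26.1% of their module UMIs in FAKI day 7 and 67.5% in STSG day 7 and was at 649 in FAKI against 1320 in STSG, opposite to the other 7. Those were UBE2L6 (108 in FAKI against 23.5 in STSG), IRF7 (74.0 in FAKI against 18.5 in STSG), IFI6 (215 in FAKI against 63.6 in STSG), IRF1 (376 in FAKI against 115 in STSG), ISG15 (331 in FAKI against 134 in STSG), IFI35 (64.1 in FAKI against 34.1 in STSG) and BST2 (170.4 in FAKI against 91.2 in STSG).

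**Figure D2:**
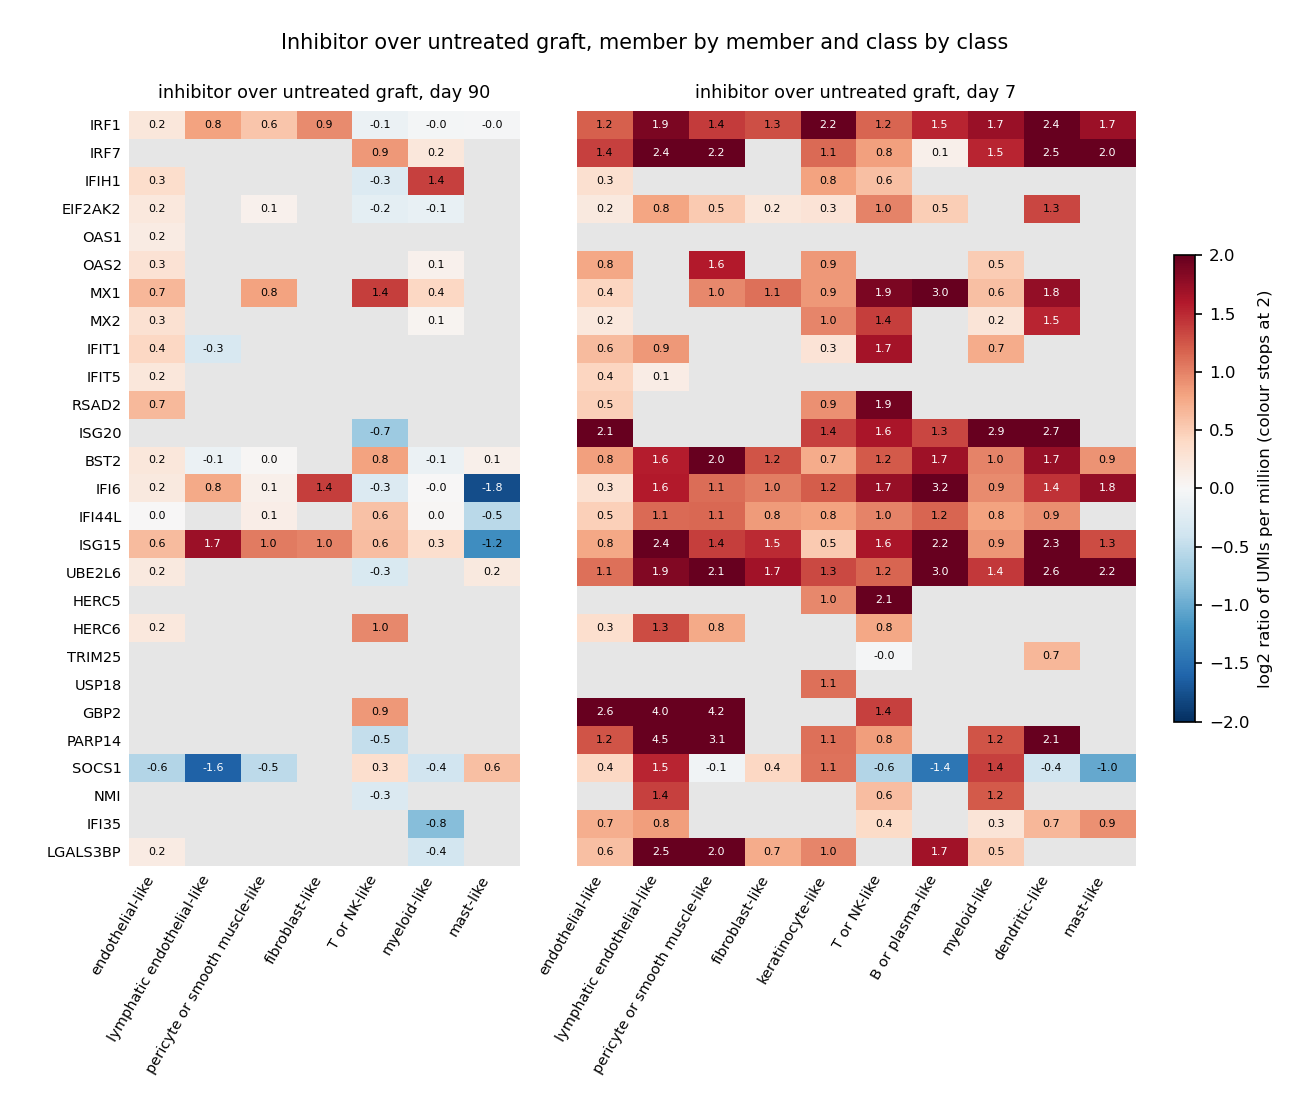
Log2 ratio of CPM, inhibitor over untreated graft, for each member (rows) in each cell class with 50 or more cells in both libraries (columns), at day 90 on the left and day 7 on the right; grey cells did not reach 50 CPM in either library, and 8 of the 35 members reached it in no class at either day and are not drawn. At day 7 nearly every filled cell is positive and SOCS1 holds the called negative values; at day 90 most values lie near 0.

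Read gene by gene across the 10 classes at day 7, IRF1, BST2 and UBE2L6 were higher in 10 of 10 classes. IFI6 and ISG15 reached the level in all 10 and were higher in 9, the exceptions being endothelial-like cells for IFI6 and keratinocyte-like cells for ISG15. PARP14 was higher in 7 of 7 classes in which it reached the level, ISG20 in 6 of 6 and GBP2 in 4 of 4. A member that reached the level in a class through FAKI day 7 only had to differ there to some extent. For GBP2 this held in all 4, as its highest class in STSG day 7 was at 49.0 CPM. The share of all genes higher in every class in which they reached the level was not computed. IRF7 and IFI44L were higher in 8 of 9 each, MX1 in 7 of 8 and LGALS3BP in 6 of 7. EIF2AK2 differed less, with 3 of 8 higher and log2 ratios between 0.20 and 1.34. SOCS1 was the one member that went both ways, higher in 3 of 10 classes and lower in 2, with log2 ratios between -1.45 in B or plasma-like and 1.53 in lymphatic endothelial-like cells. The 9 members that reached the level in no class were IFIT2, IRF9, STAT2, OAS1, DDX58, IFI44, CMPK2, PARP9 and DTX3L.

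Members under 50 CPM can be counted as well. Over every member with a UMI in either library, 29 of 35 were higher in pericyte or smooth muscle-like cells (background 5.94%), 17 of 35 in endothelial-like cells (10%) and 29 of 33 in lymphatic endothelial-like cells (16.8%). The count was 25 of 35 in fibroblast-like cells (8.57%) and 26 of 35 in keratinocyte-like cells (11.6%). Among immune classes it was 27 of 35 in T or NK-like (8.13%), 24 of 35 in myeloid-like (14.4%), 31 of 33 in dendritic-like (17.2%), 24 of 29 in B or plasma-like (22.8%) and 27 of 32 in mast-like cells (17.3%).

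The day 7 difference was also read per cell. With each cell thinned to 2000 UMIs (cells with fewer left out), the median share of a cell's UMIs from the module was 0.40% in FAKI day 7 against 0.20% in STSG day 7, where 1679 of 8653 and 974 of 7566 cells were left out. A share of 0.5% or more was found in 44.0% of FAKI cells (exact binomial 95% interval 42.9 to 45.2) against 22.8% of STSG cells (21.7 to 23.8). Pericyte or smooth muscle-like cells had a median of 0.45% in FAKI against 0.20% in STSG, endothelial-like cells 0.80% in FAKI against 0.55% in STSG, myeloid-like cells 0.40% in FAKI against 0.20% in STSG and keratinocyte-like cells 0.40% in FAKI against 0.10% in STSG. In fibroblast-like cells the medians were 0.20% in FAKI against 0.15% in STSG (0.217% and 0.144% unthinned). The gap was wider in the upper tail, where the 90th percentile was 1.15% in FAKI against 0.50% in STSG. Without thinning, the medians over all cells were 0.413% in FAKI against 0.215% in STSG. T or NK-like cells were the shallowest, so 922 of 1895 in FAKI and 344 of 962 in STSG were left out there, and the rest had medians of 0.35% in FAKI against 0.20% in STSG. A UMI of IFI6 was found in 69.8% of thinned cells in FAKI day 7 against 58.2% in STSG day 7 (79.0% of FAKI and 71.3% of STSG cells unthinned). As a class with little of the gene, 133 thinned keratinocyte-like cells of unwounded skin had a share of 2.26% (16.1% unthinned), with a median depth of 14361 UMIs before thinning.

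**Figure D3:**
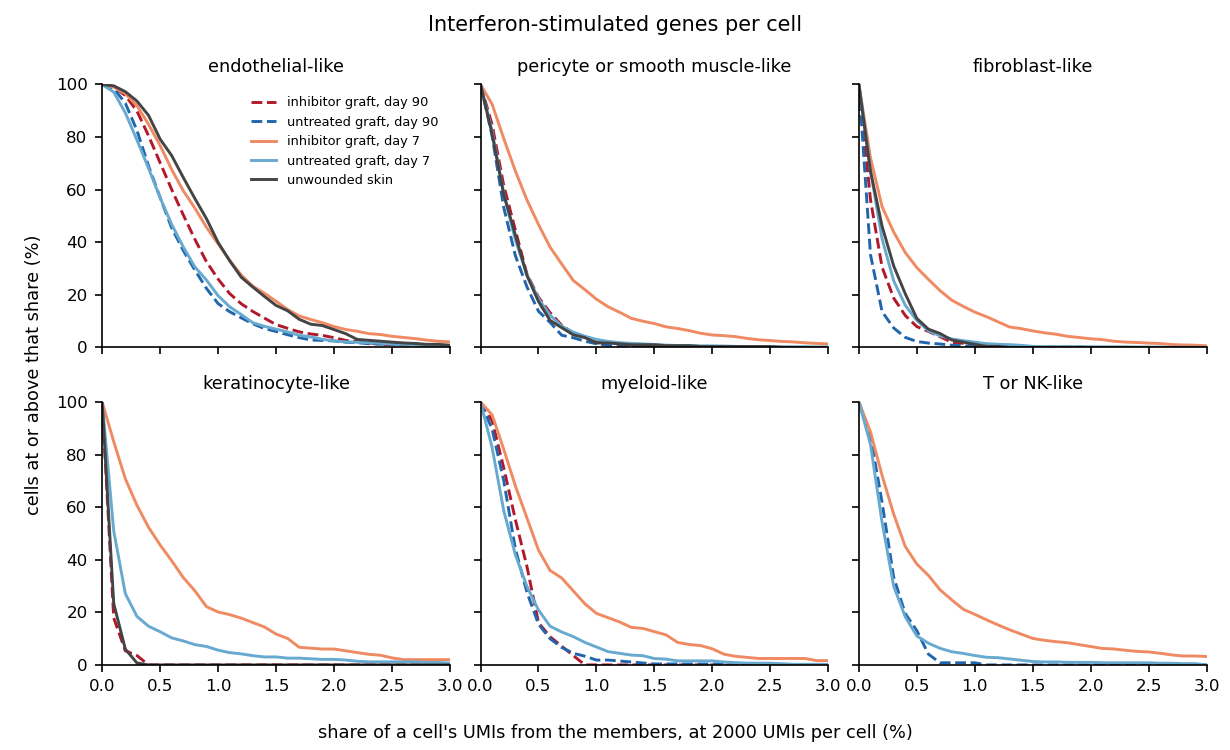
Percent of cells (vertical axis) whose share of UMIs from the module was at or above the value on the horizontal axis, after thinning to 2000 UMIs per cell, in 6 classes; dashed lines are day 90 grafts, solid lines day 7 grafts and the dark line unwounded skin, and libraries with fewer than 50 thinned cells of a class are left out. FAKI day 7 lies above STSG day 7 in each of the 6 classes, and in endothelial-like cells unwounded skin runs close to FAKI day 7.

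Finer groups of cells gave the same direction. In 26 clusters with 50 or more cells in both day 7 grafts the summed module was above 1 in all 26 and past 1.5-fold in 20, between 1.24 and 5.10, with a median of 1.98. The clusters under 1.5-fold were 2 of endothelial-like cells, the mast-like cluster and the 3 clusters led by cycling genes. Weighing the 10 classes the same gave 5338 CPM in FAKI against 2552 in STSG, 2.09-fold, so the day 7 ratio did not shrink when the make-up of the libraries was held equal. T or NK-like cells were 21.9% of FAKI day 7 and 12.7% of STSG day 7, and endothelial-like cells were 13.4% of FAKI day 7 and 20.2% of STSG day 7.

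**Figure D4:**
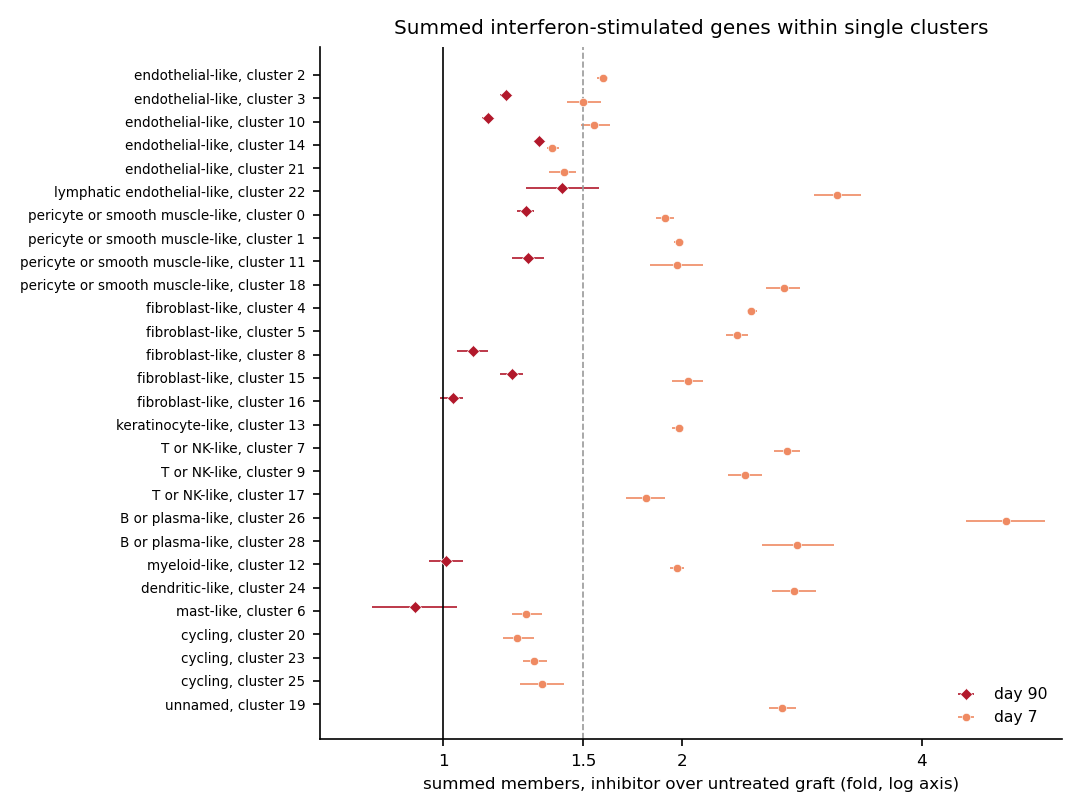
Summed module, inhibitor over untreated graft, inside each cluster with 50 or more cells in both libraries, as a fold on a log axis; diamonds are day 90, circles day 7, bars 95% counting intervals, the solid line marks 1 and the dashed line 1.5-fold. Day 7 values lie between 1.24 and 5.10 and day 90 values between 0.922 and 1.41.

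At day 90 the picture over all cells was again one of higher members, and the picture within classes was smaller. Over all cells 13 members reached 50 CPM, 6 of them in 1 library only, and 11 were over 1.5-fold higher with the inhibitor and 0 lower, where 11.6% of 2829 genes were higher and 6.47% lower. Over every member with a UMI, 23 of 35 were higher and 0 lower (background 20.5% and 9.69%). With the 7 classes that had 50 cells in both libraries weighing the same, the module was at 2818 CPM in FAKI against 2361 in STSG. That is 1.19-fold instead of 1.83-fold, and 1 of 8 members was higher. The share of all genes was not computed with equal weights, so that count cannot be read against a background. Endothelial-like cells, the class with the highest module level, were 35.6% of FAKI day 90 and 23.4% of STSG day 90, while fibroblast-like cells, with a low level, were 20.8% of FAKI day 90 and 37.4% of STSG day 90.

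Endothelial-like cells (1316 FAKI, 1259 STSG) had a module of 6790 in FAKI against 5563 in STSG at day 90, 1.22-fold (1.21 to 1.23), with 3 of 18 members higher and 0 lower against a background of 0.724% higher. MX1 was at 141 in FAKI against 88.5 in STSG, RSAD2 at 82.1 in FAKI against 52.5 in STSG and ISG15 at 1424 in FAKI against 922 in STSG, each just past the rule with folds of 1.59, 1.56 and 1.54. SOCS1 went the other way, at 64.8 in FAKI against 97.0 in STSG, 0.667-fold (0.622 to 0.716), the edge of the rule. The level was reached in 1 library only by 4 of the 18 members. With the endothelial-like clusters weighing the same, 0 members were higher and 1 was lower, at a module ratio of 1.12. The share of all genes was not computed for that weighting. Pericyte or smooth muscle-like cells (1007 FAKI, 965 STSG) had a module of 2989 in FAKI against 2386 in STSG, 1.25-fold (1.23 to 1.28), with 2 of 8 members higher and 0 lower (background 2.04% higher). These were ISG15, at 469 in FAKI against 228 in STSG, and MX1, at 91.0 in FAKI against 52.3 in STSG, while IFI6 was at 998 in FAKI against 929.7 in STSG and IRF1 at 734 in FAKI against 498 in STSG. Inside clusters 0 and 11, which held most of this class in both day 90 grafts, the module ratio was 1.27 (1.24 to 1.30) and 1.28 (1.22 to 1.34). With the 3 shared clusters of that class weighing the same it was 1.64, but the third of these, cluster 1, had only 34 FAKI and 47 STSG cells and took the same weight as the others. Keratin markers stood in this class at 4.54% of their library level in FAKI day 90 and 20.0% in STSG day 90. For the module that would be 185 of 2989 CPM in FAKI and 448 of 2386 in STSG. In endothelial-like cells the shares were 2.37% in FAKI and 10.2% in STSG. Their part in the ratios was not tested.

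Fibroblast-like cells (768 FAKI, 2013 STSG) showed the largest class ratio at day 90, 1325 in FAKI against 731 in STSG, 1.81-fold (1.78 to 1.85). IFI6 was at 648 in FAKI against 248 in STSG, ISG15 at 71.8 in FAKI against 36.2 in STSG and IRF1 at 239 in FAKI against 124 in STSG, and these 3 were all that reached the level and all were higher (background 6.36% higher). ISG15 reached the level in FAKI day 90 only and so had to differ to some extent. Different clusters held most of this class in the 2 libraries. Cluster 8, led by THBS4 and SFRP2, held 148 FAKI and 1007 STSG cells, cluster 5, led by MMP13, held 8 FAKI and 377 STSG cells, and cluster 16, led by CPZ and CCDC80, held 377 FAKI and 281 STSG cells. With the 3 clusters that had 20 cells in both weighing the same, the ratio was 1.15 and 1 of 4 members was higher. For this count the share of all genes was not computed. Keratin markers stood in these fibroblast-like cells at 3.05% of their level over the library in FAKI day 90 and at 11.3% in STSG day 90. The same share of the module level would be 124 of the 1325 CPM in FAKI and 252 of the 731 in STSG, and its part in the ratio was not tested.

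The other classes at day 90 were small. The level was reached in 1 library only by 4 of 16 members in T or NK-like and 3 of 14 in myeloid-like cells. In lymphatic endothelial-like cells these were 2 of 6 and in mast-like cells 3 of 7. T or NK-like cells (76 FAKI, 213 STSG) had 6 of 16 members higher and 1 lower (background 13.5% and 14.1%), led by MX1 at 102 in FAKI against 39.2 in STSG, 2.60-fold (1.36 to 4.91), with ISG20 at 61.1 in FAKI against 101 in STSG. HERC6, GBP2, IRF7, BST2 and ISG15 were the other 5, and IFI44L was at 1.49-fold (0.961 to 2.28). Myeloid-like cells (58 FAKI, 283 STSG) had 1 of 14 higher, IFIH1 at 64.9 in FAKI against 25.2 in STSG, and 1 lower, IFI35 at 29.5 in FAKI against 53.2 in STSG (background 6.13% and 4.91%), at a module ratio of 1.01-fold (0.960 to 1.06). Lymphatic endothelial-like cells (64 FAKI, 62 STSG) had 3 of 6 higher and 1 lower (background 8.6% and 14.9%). ISG15 was at 189 in FAKI against 57.9 in STSG, IRF1 at 125 in FAKI against 72.0 in STSG, IFI6 at 353 in FAKI against 208 in STSG and SOCS1 at 22.9 in FAKI against 70.4 in STSG. Mast-like cells (177 FAKI, 229 STSG) had 1 of 7 higher and 2 lower (background 14% and 8.41%), with SOCS1 at 418 in FAKI against 276 in STSG, IFI6 at 38.9 in FAKI against 132 in STSG and ISG15 at 114 in FAKI against 271 in STSG. Inside the 11 clusters that could be compared at day 90 the module ratio lay between 0.922 and 1.41 with a median of 1.20, and 0 passed 1.5-fold. The day 7 and day 90 ratios were not tested against each other.

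Each graft was also set against unwounded skin, and all 4 of these comparisons share that 1 library of 1542 cells, so they are given side by side. Over all cells, at 50 CPM, FAKI day 90 had 0 of 16 members higher and 3 lower (background 5.48% and 6.44%), STSG day 90 had 0 of 16 higher and 14 lower (13.4% and 22.3%), FAKI day 7 had 8 of 21 higher and 5 lower (25.6% and 24.3%), and STSG day 7 had 1 of 16 higher and 11 lower (21.3% and 19.4%). That level was reached in 1 library only by 3 of 16 for FAKI day 90 and 9 of 16 for STSG day 90. For FAKI day 7 these were 9 of 21 and for STSG day 7 they were 8 of 16. In unwounded skin 5 classes had 50 or more cells, so T or NK-like (23 cells), myeloid-like (21) and lymphatic endothelial-like cells (21) were not ranked there. Among these 5 classes, 33 of the 35 members had their highest level in endothelial-like cells, the exceptions being highest in mast-like (1) and pericyte or smooth muscle-like cells (1). Endothelial-like cells were highest for 22 members in FAKI day 90 and 22 in STSG day 90, over 8 classes each, and for 11 in FAKI day 7 and 20 in STSG day 7, over 10 classes each. These numbers are over different sets of classes and are not compared. The share of all genes that were highest in endothelial-like cells was not computed. Whether these counts are particular to the module therefore cannot be read from them.

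Endothelial-like cells of unwounded skin had a module of 8616 CPM. FAKI day 90 was at 6790, 0.788-fold (0.781 to 0.795), with 7 of 23 members lower and 0 higher (background 4.52% lower). STSG day 90 was at 5563, 0.646-fold (0.639 to 0.652), with 14 of 23 lower and 0 higher (background 7.96%). FAKI day 7 was at 9254, 1.07-fold (1.06 to 1.09), with 5 of 26 higher and 5 lower (background 22.9% and 18.9%), and without the cells with shared barcodes this ratio turned to 0.979-fold. Cluster 2 held 69% of these cells in FAKI day 7, while clusters 3, 10 and 21 led in unwounded skin, and inside clusters 3, 10, 14 and 21 FAKI day 7 was at 1.0-fold, 0.806-fold, 1.05-fold and 1.43-fold of unwounded skin. Cluster 2 was led by the interferon targets CXCL11 and CXCL9, though these were left out of the clustering. With 35 cells in unwounded skin, cluster 2 was not compared. No direction between FAKI day 7 and unwounded skin is therefore given for this class. STSG day 7 was at 5998, 0.696-fold (0.689 to 0.703), with 11 of 23 lower and 1 higher (background 15.3% and 21.7%), and inside the same 4 clusters at 0.667-fold, 0.519-fold, 0.766-fold and 1.01-fold. The level was reached in 1 library only by 5 of 23 members for FAKI day 90 and 9 of 23 for STSG day 90. For FAKI day 7 these were 7 of 26 and for STSG day 7 they were 7 of 23. Those members had to differ to some extent. RSAD2 was at 82.1 in FAKI day 90, 52.5 in STSG day 90, 46.3 in STSG day 7 and 135.6 in unwounded endothelial-like cells, and OAS1 at 47.8 in STSG day 90 against 107 in unwounded skin. SOCS1 moved the other way at day 7, at 461.4 in FAKI day 7 and 346.3 in STSG day 7 against 66.0 in unwounded skin. ISG20 stood at 104 in FAKI day 7 against 5.35 in unwounded skin and GBP2 at 141 in FAKI day 7 against 29.5 in unwounded skin. For STSG day 90 the lower members included MX1 (88.5 in STSG day 90 against 214 in unwounded skin), ISG15 (922 in STSG day 90 against 2094 in unwounded skin), IFIT1 (99.4 in STSG day 90 against 223 in unwounded skin) and IFIH1 (79.0 in STSG day 90 against 159 in unwounded skin).

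Keratinocyte-like cells gave the widest contrast with unwounded skin. The module was at 564 CPM in FAKI day 90 (65 cells), 5385 in FAKI day 7, 2724 in STSG day 7 and 521 in unwounded skin (137 cells), which is 1.08-fold (0.990 to 1.18), 10.3-fold (9.81 to 10.9) and 5.23-fold (4.96 to 5.53) for the 3 grafts. STSG day 90 had too few of these cells to compare. In FAKI day 7, 20 of 20 members were higher (background 29.8%), of which 18 reached the level in that graft only. In STSG day 7, 9 of 10 were higher and 1 lower (background 25.1% and 17.2%), and 8 of the 10 reached the level in 1 library only. IFI6 was at 1654 in FAKI day 7, 716.4 in STSG day 7 and 17.5 in unwounded keratinocyte-like cells, and BST2 at 218.5 in FAKI day 7, 131 in STSG day 7 and 1.46 in unwounded cells. IFIT1 was at 95.6 in FAKI day 7 against 1.82 in unwounded skin, and MX1 at 85.6 in STSG day 7 against 3.28 in unwounded skin. IRF1 made up 48.9% of the few module UMIs in unwounded keratinocyte-like cells. Collagen and other fibroblast markers stood in the unwounded keratinocyte-like cells at 5.66% of their level over the library, a share that would amount to 274 of the 521 CPM of the module. The part of RNA from other cells in that low level was not tested.

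Fibroblast-like cells were at 1325 CPM in FAKI day 90, 731 in STSG day 90, 4074 in FAKI day 7, 1954 in STSG day 7 and 1898 in unwounded skin. FAKI day 7 was the graft above unwounded skin, 2.15-fold (2.09 to 2.20), with 9 of 11 members higher, but 43% of all genes were higher in that comparison and their median log2 ratio was 0.39. The level was reached in 1 library only by 8 of the 11. The class sat in different clusters in the 2 libraries. Clusters 4 (led by GREM1) and 5 (MMP13) held 46.4% and 42.4% of it in FAKI day 7, and clusters 16 (CPZ) and 15 (C4A) held 49.0% and 47.8% in unwounded skin. Cluster 15 alone had 50 cells in both, and there the ratio was 1.03-fold (0.990 to 1.08), so the 2.15-fold difference of the class was not seen inside it. BST2 was at 252 in FAKI day 7 against 14.5 in unwounded skin, and UBE2L6 at 70.7 in FAKI day 7 against 14.8 in unwounded skin. STSG day 7 was at 1.03-fold (1.0 to 1.06), with 2 of 7 higher and 2 lower (background 37.8% and 17.2%), and at 0.510-fold (0.487 to 0.534) inside cluster 15. STSG day 90 was the lowest, 0.385-fold (0.374 to 0.396), with 4 of 4 members lower (background 20.9%), namely IRF1 at 124 in STSG day 90 against 491 in unwounded skin, IFI6 at 248 in STSG day 90 against 848 in unwounded skin, ISG15 at 36.2 in STSG day 90 against 106 in unwounded skin and TRIM25 at 22.4 in STSG day 90 against 51.2 in unwounded skin. Cluster 8, which held 50% of this class in STSG day 90, had 0 cells in unwounded skin, and inside clusters 15 and 16 the STSG day 90 ratio was 0.731-fold (0.701 to 0.762) and 0.997-fold (0.948 to 1.05). FAKI day 90 had 2 of 4 lower at 0.698-fold (0.678 to 0.719) (background 16.2%), with 0.893-fold and 1.02-fold inside those 2 clusters. In fibroblast-like cells the level was reached in 1 library only by 1 of 4 members for FAKI day 90 and 2 of 4 for STSG day 90. For STSG day 7 these were 4 of 7. Those members had to differ to some extent. Pericyte or smooth muscle-like cells of FAKI day 7 were 2.14-fold (2.09 to 2.20) above unwounded skin, with 12 of 16 members higher and 1 lower (background 23% and 27.4%), and the other 3 grafts lay at 1.07-fold (FAKI day 90), 0.855-fold (STSG day 90) and 0.968-fold (STSG day 7). For FAKI day 7 the level was reached in 1 library only by 9 of the 16 members. Cluster 1, led by HIGD1B, held 51.8% of these cells in FAKI day 7 and 8.52% in unwounded skin, where clusters 11 and 0 held 45.6% and 44.6%. The interferon targets CXCL10 and CXCL9, though left out of the clustering, were among the leading genes of cluster 1. With 26 cells in unwounded skin, cluster 1 was not compared. Inside clusters 0 and 11 FAKI day 7 was at 1.13-fold (1.09 to 1.17) and 1.24-fold (1.15 to 1.34) of unwounded skin, and STSG day 7 at 0.595-fold and 0.630-fold. IRF1 and IFI6 differed in direction in these cells, where IRF1 was at 284 in STSG day 7 against 1126 in unwounded skin and IFI6 at 1279 in STSG day 7 against 543 in unwounded skin. Mast-like cells, of which unwounded skin had 59, ranged from 0.988-fold in FAKI day 90, which turned to 1.01-fold without shared barcodes, to 2.07-fold in FAKI day 7.

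**Figure D5:**
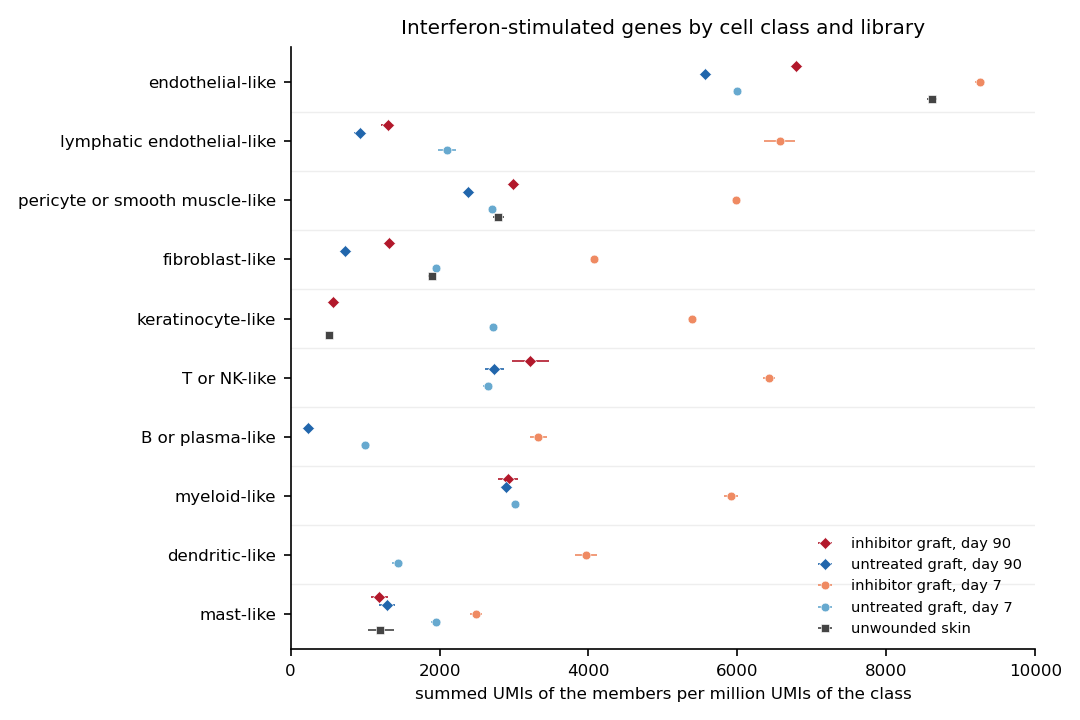
Summed module in CPM of a class (horizontal axis) for 10 cell classes, with 1 point per library that had 50 or more cells of the class and 95% counting intervals. FAKI day 7 is the highest library in every class drawn, though in endothelial-like cells it is at 0.979-fold of unwounded skin once cells with shared barcodes are left out, and endothelial-like cells exceed the other classes in each of the 5 libraries.

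Day 90 was compared with day 7 within each treatment. In the inhibitor grafts the module was lower at day 90 in each of the 8 classes compared, at 0.734-fold (0.727 to 0.740) in endothelial-like, 0.5-fold (0.492 to 0.507) in pericyte or smooth muscle-like, 0.5-fold (0.461 to 0.541) in T or NK-like, 0.325-fold (0.320 to 0.330) in fibroblast-like and 0.198-fold (0.184 to 0.214) in lymphatic endothelial-like cells, and 0.105-fold (0.0973 to 0.113) in keratinocyte-like cells. In 3 of these classes most cells lay in other clusters at day 90 than at day 7. Fibroblast-like cells of FAKI day 90 lay in clusters 16, 15 and 8 (49.1%, 29.0% and 19.3%) and those of FAKI day 7 in clusters 4 and 5, and inside cluster 15, the only one compared, the ratio was 0.863-fold (0.831 to 0.896). Pericyte or smooth muscle-like cells of FAKI day 90 lay in clusters 0 and 11 (52.5% and 42.8%), and inside these the ratio was 0.940-fold (0.920 to 0.960) and 0.993-fold (0.933 to 1.06). The lower levels of both classes as a whole were thus not seen at that size inside the clusters the days share. Cluster 1, with 51.8% of the pericyte or smooth muscle-like cells in FAKI day 7, was not compared. CXCL10 and CXCL9 were among its leading genes, so the shared clusters leave out cells marked by interferon targets. Endothelial-like cells lay in clusters 3, 10 and 14 at day 90 and mainly in cluster 2 at day 7, and inside clusters 3, 10 and 14 the ratio was 0.810-fold, 0.893-fold and 0.786-fold. Cluster 2, led by CXCL11 and CXCL9, was not compared between the inhibitor grafts. Over all cells the module was at 0.738-fold (0.734 to 0.742), with 6 of 18 members lower and 0 higher (background 24% lower). The level was reached in 1 library only by 6 of the 18. With 8 classes weighing the same the module was at 0.44-fold with 17 of 20 members lower. The share of all genes was not computed with equal weights, so the 17 of 20 cannot be read against a background. In the untreated grafts the classes differed. Endothelial-like, T or NK-like, myeloid-like and pericyte or smooth muscle-like cells were at 0.928, 1.03, 0.961 and 0.884 of their day 7 level, while fibroblast-like cells were at 0.374 and lymphatic endothelial-like cells at 0.442. Mast-like cells were at 0.661. B or plasma-like cells were lowest at 0.228 (0.202 to 0.258), but 1252 of 1354 genes were lower in that class. Here too the clusters differed between days, and the direction turned in some. Cluster 8 held 50% of the fibroblast-like cells in STSG day 90, against clusters 4 and 5 with 53.7% and 26.7% in STSG day 7. Inside clusters 4 and 5 the ratio was 0.542-fold and 0.537-fold, but inside cluster 15 it was 1.43-fold (1.38 to 1.49). Pericyte or smooth muscle-like clusters 0 and 11 were at 1.41-fold (1.37 to 1.45) and 1.53-fold (1.44 to 1.63), above 1 where the class as a whole was at 0.884. Endothelial-like clusters 2, 3, 10 and 14 were at 0.5-fold, 1.02-fold, 1.22-fold and 0.818-fold. Over all untreated cells 2 of 8 members were lower and 0 higher (background 18.9% lower), at 0.711-fold (0.706 to 0.715). The median log2 ratio of all genes in fibroblast-like cells was -0.40 in the inhibitor grafts and -0.22 in the untreated grafts, so other genes were also lower there.

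The interferons themselves were barely counted. Of 8 ligand genes listed, 5 had a row and 3 had a UMI. IFNG gave 1 UMI in FAKI day 90, 1 in STSG day 90, 65 in FAKI day 7, 7 in STSG day 7 and 1 in unwounded skin. Of the day 7 UMIs, 62 of 65 in FAKI and 7 of 7 in STSG lay in T or NK-like cells, at 13.3 in FAKI against 2.62 in STSG CPM of those cells, 5.08-fold (2.33 to 13.2), and T or NK-like cells were also the larger share of FAKI day 7. IFNB1, a type I interferon, gave 0 UMIs in FAKI day 90, 1 in STSG day 90, 19 in FAKI day 7, 11 in STSG day 7 and 1 in unwounded skin. Myeloid-like cells held 18 of the 19 in FAKI day 7 and 10 of the 11 in STSG day 7. The 18 came from the smaller total, 251 cells with 2612356 UMIs in FAKI against 494 cells with 5682012 UMIs in STSG. IFNE, a type I interferon of epithelia, gave 30 UMIs in FAKI day 90, 327 in STSG day 90, 114 in FAKI day 7, 59 in STSG day 7 and 13 in unwounded skin. At day 7 most lay in keratinocyte-like cells (86 in FAKI and 50 in STSG), whereas 308 of the 327 in STSG day 90 lay in fibroblast-like cells. IFNA1 and IFNK had a row and no UMI. Among the receptor subunits, IFNAR1 was at 72.1 CPM in FAKI day 90, 57.8 in STSG day 90, 58.3 in FAKI day 7, 71.6 in STSG day 7 and 75.7 in unwounded skin, and IFNAR2 was at 35.8 CPM in FAKI day 90, 31.9 in STSG day 90, 51.5 in FAKI day 7, 54.6 in STSG day 7 and 28.0 in unwounded skin. For interferon gamma, IFNGR1 was at 59.9 CPM in FAKI day 90, 53.7 in STSG day 90, 80.2 in FAKI day 7, 90.7 in STSG day 7 and 55.3 in unwounded skin, and IFNGR2 was at 86.4 CPM in FAKI day 90, 89.7 in STSG day 90, 136 in FAKI day 7, 153 in STSG day 7 and 80.3 in unwounded skin. Of the receptor genes at 50 CPM, 0 of 3 at day 90 and 0 of 4 at day 7 passed 1.5-fold between treatments, where 11.6% of all genes were higher and 6.47% lower at day 90 and 3.11% and 4.37% at day 7, so counts this small cannot be told apart from the background. IFNLR1, the type III receptor, was at 0.402 CPM in FAKI day 90, 0.272 in STSG day 90, 3.56 in FAKI day 7, 5.34 in STSG day 7 and 1.13 in unwounded skin, and its partner IL10RB was at 22.1 CPM in FAKI day 90, 24.0 in STSG day 90, 38.8 in FAKI day 7, 45.4 in STSG day 7 and 25 in unwounded skin.

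Other genes of the pathway were counted by list. Among 27 further interferon targets with a row, 5 of 7 at the level were higher and 0 lower at day 7, and 2 of 6 higher and 1 lower at day 90. The background over all genes was 3.11% higher and 4.37% lower at day 7 and 11.6% higher and 6.47% lower at day 90. Antigen presentation and chemokine genes had 8 of 10 higher and 0 lower at day 7 and 5 of 8 higher and 0 lower at day 90, against the same background. The chemokines that draw T cells through CXCR3 had the largest ratios of these lists at day 7. CXCL10 was at 106 CPM in FAKI day 90, 53.1 in STSG day 90, 4354 in FAKI day 7, 284 in STSG day 7 and 83.1 in unwounded skin. CXCL9 was at 72.4 CPM in FAKI day 90, 37.3 in STSG day 90, 892 in FAKI day 7, 113 in STSG day 7 and 34.2 in unwounded skin, and CXCL11 was at 0.444 CPM in FAKI day 90, 0.449 in STSG day 90, 141 in FAKI day 7, 20.4 in STSG day 7 and 1.07 in unwounded skin. FAKI day 7 was the highest library for all 3, with log2 ratios over STSG day 7 of 3.94, 2.99 and 2.79. The log2 ratio was 1.90 for WARS, a tRNA synthetase, 1.03 for EPSTI1, 1.32 for the immunoproteasome subunit PSMB9 and 1.08 for the peptide transporter TAP1. At day 90 the largest were PML (0.99), CXCL10 (0.99), ZNFX1 (0.99), CXCL9 (0.96), TMEM173 (0.83), TAP1 (0.77) and TAP2 (0.70) on the log2 scale, and IFI30, a lysosomal thiol reductase, was lower (-0.82). These genes were chosen with results known and share their libraries with the members, so they are no independent evidence.

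Library quality moved with treatment in opposite directions at the 2 days. The median share of mitochondrial UMIs was 4.24% in FAKI day 90, 2.92% in STSG day 90, 2.96% in FAKI day 7, 4.64% in STSG day 7 and 4.82% in unwounded skin, so the inhibitor graft had the lower share at day 7 and the higher share at day 90. Heat shock genes had a median log2 ratio of -0.03 at day 90 and 0.16 at day 7, and immediate early genes 0.32 at day 90 and -0.02 at day 7. Keratin markers in T or NK-like cells stood at 5.59% of their library level in FAKI day 7 and 9.54% in STSG day 7, which for the module would be 309 of 6424 CPM in FAKI and 300 of 2650 in STSG. In the other classes of the day 7 grafts the larger of the keratin and fibroblast marker shares would amount to between 65.5 and 265 CPM of the module, below the measured 1003 to 9254. The part of these differences in the results was not tested.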

How the data were processed

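Single-cell RNA was captured with 10x Chromium 3′ chemistry, 1 library per group, and the deposited matrices hold whole UMI counts per gene and cell barcode. Per the submitters' processing notes the authors used Cell Ranger and Seurat 3.1.1, and per the file headers the matrices carry software version 3.1.0. The genome build was not given in the sources used here. Of 20286 gene IDs, 14674 had a symbol in the files, 677 took one from a gene name table and 4935 had none.

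From these counts, cells with at least 500 genes and at most 25% mitochondrial UMIs were kept. Scrublet's automatic threshold called 0 to 83 doublets per library, so the highest scores were removed instead, at 0.8% per 1000 cells, which took out 19 to 700 cells per library and left 26842. Cells were clustered with Scanpy 1.11.5 on 2000 variable genes without interferon genes, 30 principal components, 20 neighbours and Leiden resolution 1 (leidenalg 0.10.2, igraph 0.11.9, scikit-learn 1.9.0). Of 33 clusters, 4 stayed unnamed and 3 were led by cycling genes; the others were named from 133 measured markers. Counts were summed per library and class and divided by total UMIs to give counts per 1000000 (CPM). Ratios have exact conditional binomial, levels exact Poisson and shares exact Clopper-Pearson 95% intervals (SciPy 1.17.1 with NumPy 2.4.6 and pandas 2.3.3 under Python 3.11.15), and figures used Matplotlib 3.10.9. The ratio step was also run on simulated counts. A level counts as read from 50 CPM in either library, in classes with 50 or more cells in both. A member that reaches it in 1 library only has to differ to some extent.

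Every member is named, those with 20 CPM in some library have values in all 5, and within a class up to 8 members with the largest ratios are named. The members and lists were chosen with earlier results of these data known, and the marker lists for RNA from other cells were narrowed after values were seen. Promoter motifs were not analysed here, and 1 gene of the signalling list is not reported here, nor is that list's count.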

Additional observations from a re-analysis of the deposited data

Results flagged for a closer look

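For 4 members the inhibitor-over-untreated ratio within a class passed 1.5-fold one way at day 90 and the other way at day 7. In mast-like cells the log2 ratio of IFI6 was -1.77 at day 90 and 1.75 at day 7, that of ISG15 was -1.25 at day 90 and 1.31 at day 7, and that of SOCS1 was 0.60 at day 90 and -1.02 at day 7. In T or NK-like cells ISG20 had a log2 ratio of -0.73 at day 90 and 1.63 at day 7. At day 90 these cells were few (76 FAKI, 213 STSG), and 0 members had a counting interval wholly past 1.5-fold either way. In mast-like cells of day 90, 0 members, and so not SOCS1, had an interval wholly past 1.5-fold higher. In lymphatic endothelial-like cells (64 FAKI and 62 STSG at day 90) SOCS1 had a log2 ratio of -1.62 at day 90 and 1.53 at day 7. With 1 library per group these differences between the days were not tested.

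The gene name table pairs 1 row that carries no symbol in the files with GBP1, a guanylate binding protein of the interferon gamma response. That row was 5.36-fold higher in FAKI day 7 than in STSG day 7. Cells in clusters without a class name, which enter no class comparison, had a summed module of 9257 CPM in FAKI day 7 and 3747 in STSG day 7. Cells of the clusters led by cycling genes had 2728 CPM in FAKI day 7 and 2346 in STSG day 7.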

How the results depend on the processing

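Among the recomputed counts of members and module shares 327 stayed close to the reported value and 93 moved. Each count of members was followed only in the direction of its main setting, so a reversal would not show in these numbers. Of the summed module ratios, 2 of 60 turned without shared barcodes, FAKI day 7 over unwounded skin in endothelial-like cells (0.979 instead of 1.07) and FAKI day 90 over unwounded skin in mast-like cells (1.01 instead of 0.988). A 2-fold rule left, with the inhibitor higher at day 7, 6 members over all cells, 12 in T or NK-like, 6 in endothelial-like, 8 in keratinocyte-like and 7 in myeloid-like cells. At day 90 it left 3 over all cells, 1 each in T or NK-like, fibroblast-like, lymphatic endothelial-like and pericyte or smooth muscle-like cells and 0 in endothelial-like cells. Against unwounded skin it left 5 higher in FAKI day 7, 0 lower in FAKI day 90 and 9 lower in STSG day 90, and 1 lower in STSG day 90 over STSG day 7. The share of all genes was not computed for the 2-fold rule, so these counts cannot be read against a background.

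Counting members with any UMI gave, for the inhibitor at day 7, 21 higher over all cells, 24 in B or plasma-like, 31 in dendritic-like, 25 in fibroblast-like, 26 in keratinocyte-like, 29 in lymphatic endothelial-like, 27 in mast-like, 24 in myeloid-like and 29 in pericyte or smooth muscle-like cells. At day 90 it gave 23 of 35 over all cells (20.5% of all genes), 11 of 29 in T or NK-like (30%), 10 of 35 in fibroblast-like (16.1%), 13 of 30 in lymphatic endothelial-like (18.4%), 7 of 33 in pericyte or smooth muscle-like (10.6%) and 5 of 35 in myeloid-like cells (21.6%), and 5 of 25 lower in mast-like cells (16.5%). It gave 6 of 35 lower in FAKI day 90 (22.7%), 29 of 35 in STSG day 90 (36.1%) and 21 of 35 in STSG day 7 (39.5%) against unwounded skin, and 7 of 35 lower in STSG day 90 over STSG day 7 (19.7%). For FAKI day 90 against unwounded skin, STSG day 90 over STSG day 7 and day 90 myeloid-like cells the share of members was below or close to that of all genes. Counting from 10 CPM gave, at day 7, 22 in B or plasma-like, 26 in dendritic-like, 20 in fibroblast-like, 29 in lymphatic endothelial-like, 23 in mast-like, 23 in myeloid-like and 26 in pericyte or smooth muscle-like cells. At day 90 it gave 21 over all cells, 11 in T or NK-like, 5 in fibroblast-like, 9 in lymphatic endothelial-like, 4 in myeloid-like and 4 in pericyte or smooth muscle-like cells. It gave 5 lower in FAKI day 90, 27 in STSG day 90 and 19 in STSG day 7 against unwounded skin, and 7 in STSG day 90 over STSG day 7. These settings change which members are counted. From 10 CPM the share of all genes was not computed, so those counts cannot be read against a background.

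With classes weighing the same, 1 member was higher with the inhibitor at day 90, 6 were lower in STSG day 90 and 1 in STSG day 7 against unwounded skin, and 17 were lower in FAKI day 90 over FAKI day 7 and 1 in STSG day 90 over STSG day 7. Means of per-cell values gave 7 higher at day 90, 11 lower in FAKI day 90 over FAKI day 7 and 1 lower in STSG day 90 over STSG day 7. At day 90, with the clusters of a class weighing the same, 0 were higher in endothelial-like, 1 in fibroblast-like and 5 in pericyte or smooth muscle-like cells. Endothelial-like cells had 6 at day 90 with each library clustered alone, and myeloid-like cells 2 at Leiden resolution 0.5. Mast-like cells had 11 at day 7 with doublets kept, with every barcode clustered anew, and with totals free of mitochondrial, ribosomal and haemoglobin genes; that total gave 5 in lymphatic endothelial-like cells at day 90. The cause was not tested, and the share of all genes was not computed for these settings. Weighing clusters the same, clustering every barcode anew, and leaving shared barcodes out of the class comparisons with unwounded skin were chosen after seeing the data.

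The module share was 0.226% in STSG day 90, 0.567% in FAKI day 7, 0.318% in STSG day 7 and 0.475% in unwounded skin over every barcode. With doublets kept it was 0.226% in STSG day 90, 0.561% in FAKI day 7 and 0.318% in STSG day 7. With stricter cell filters it was 0.411% in FAKI day 90, 0.540% in FAKI day 7, 0.316% in STSG day 7 and 0.498% in unwounded skin. Without shared barcodes it was 0.405% in FAKI day 90, 0.218% in STSG day 90 and 0.493% in unwounded skin. With the other total it was 0.507% in FAKI day 90, 0.269% in STSG day 90, 0.691% in FAKI day 7, 0.399% in STSG day 7 and 0.613% in unwounded skin. The median share per cell without thinning was 0.299% in FAKI day 90, 0.15% in STSG day 90, 0.413% in FAKI day 7 and 0.215% in STSG day 7, and thinned to 1000 UMIs it was 0.1% in STSG day 90. Leiden resolution 2, median-ratio scaling and clustering with the interferon genes moved 0 values.

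No paired analysis was possible because each group is 1 library, and leaving out a replicate was not possible for the same reason. Intervals cover counting error only, so animal, digestion and capture cannot be told apart from group.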
